A study of Mus musculus with 7 samples.

Results

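Chromosome 11 of the mouse had a higher 5-formylcytosine (5fC) pulldown signal than the other 17 autosomes ranked here in each of 6 libraries. Chromosome 8, which the ranking leaves out, stood higher in the 4 siRNA-treated libraries. Chromosome 11 is described through all of its domains in the 6 deposited domain sets, ENRICHED, BACKGROUND and UNCONFIDENT alike, which gave 65105 domains of 1028782 in the whole series, counted over libraries. Its values are set against the 17 other autosomes without chromosome 8, which held 898968 domains. Chromosome 11 was chosen by measured values, since its high ENRICHED share and level in these same libraries were already known, so each comparison of chromosome 11 with other autosomes is a description with no test. The chromosome name could be checked against the mm9 assembly, in which chromosome 11 has 121843856 bp, and no domain ran past that length.

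The study mapped 5fC in J1 ES cells, a line of mouse embryonic stem cells of strain 129S4/SvJae, by tagging the aldehyde of 5fC with a biotinylated probe, pulling down the tagged DNA fragments and sequencing them. It had 3 conditions with 2 biological replicates each. TDG KD cells (libraries bham480 and ear003) received siRNA against Tdg, siRNA control cells (bham479 and ear001) received a non-targeting siRNA, and both were kept off the feeder layer and transfected repeatedly. Wild type cells (bham359_362 and bham470) grew on irradiated mouse embryonic fibroblasts, received no siRNA and also gave the only input library, so siRNA, transfection and loss of feeders cannot be told apart between the siRNA-treated and wild type libraries. A knockdown lowers a protein without removing it, and all cells came from a single line.

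The libraries held 20.4 to 45.9 M uniquely placed reads, against 26.5 M for the input, and no read counts per region were used, so precision rests on the replicates. A pair of them stood apart. On chromosome 11, 30.6% of the sequence of bham480, the shallowest library, was UNCONFIDENT, against under 0.1% in each of the other 5. The deepest library, bham359_362, was cut into 49067 domains on chromosome 11, against 1416 to 5139 in the others. Where computed, results that turn on either library are given with and without it. Counts and widths of stretches shared by all libraries were computed only with both.

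5fC arises when TET enzymes oxidise 5-methylcytosine through 5-hydroxymethylcytosine, and it is removed by thymine-DNA glycosylase, TDG, followed by base excision repair. In mouse ES cells it has been mapped at CpG islands (CGIs), promoters and exons, so its distribution follows sequence that is rich in CpG. Mouse chromosome 11 is known as a gene-dense chromosome, with the Hoxb cluster and many keratin genes.

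3 stretches of the chromosome show what its domains look like in sequence. The first is the CGI with the highest mean level among those inside ENRICHED domains in all 6 libraries, at the 5′ end of Wbp2, a transcriptional coactivator. The next is the CGI of Otx1, a homeodomain factor of the forebrain, which was picked from the 12 highest for its known gene after its values were seen. The last is the centre of the widest stretch that was ENRICHED in no library. All are read from the plus strand of mm9, with each CpG in capitals, and islands over 300 bp are cut to their central 300 bases.
Wbp2 CGI, chr11:115948134-115948352: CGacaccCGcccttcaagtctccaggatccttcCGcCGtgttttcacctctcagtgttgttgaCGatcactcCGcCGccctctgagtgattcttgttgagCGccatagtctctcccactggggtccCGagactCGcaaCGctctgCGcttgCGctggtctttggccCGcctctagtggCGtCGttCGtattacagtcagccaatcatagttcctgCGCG
Otx1 CGI, chr11:21896703-21897002: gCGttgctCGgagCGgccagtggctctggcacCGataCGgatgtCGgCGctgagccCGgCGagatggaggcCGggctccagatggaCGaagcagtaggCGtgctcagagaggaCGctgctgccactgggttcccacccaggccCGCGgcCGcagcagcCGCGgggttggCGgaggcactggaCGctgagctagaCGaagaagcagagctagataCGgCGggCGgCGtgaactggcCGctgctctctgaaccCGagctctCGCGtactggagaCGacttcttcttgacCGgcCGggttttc
Unenriched stretch, chr11:38434223-38434522: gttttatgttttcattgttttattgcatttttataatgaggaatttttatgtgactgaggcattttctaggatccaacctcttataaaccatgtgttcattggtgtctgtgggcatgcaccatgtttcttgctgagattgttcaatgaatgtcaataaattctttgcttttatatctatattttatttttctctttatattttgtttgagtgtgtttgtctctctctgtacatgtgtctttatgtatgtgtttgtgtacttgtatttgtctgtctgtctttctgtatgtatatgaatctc

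The 219 bases at Wbp2 held 19 CpG and 58.4% GC, and they overlap an exon with coding sequence. The Otx1 bases lie in a coding exon and held 32 CpG and 67% GC. The unenriched bases held 0 CpG and 31% GC, in a stretch of 296.5 kb that overlaps no annotated gene and lies 1237 kb from the nearest protein-coding gene, Odz2. Levels are the deposited mean difference of pulldown and input reads per bin, divided by the library's M uniquely placed reads and given per 100 kb, a scale on which reads spread evenly over the autosomal domains would average 42.1 before the input is subtracted. At Wbp2 the level was 5.48 and 38.9 in TDG KD, 24.0 and 17.6 in siRNA control, and 167 and 29.3 in wild type, with the highest value by far in bham359_362, on which its place at the top rests. The Otx1 island had 27.9 and 54.1 in TDG KD, 34.7 and 34.8 in siRNA control, and 64.4 and 30.7 in wild type, and of the pair only this island was high in bham480. Over the unenriched stretch the level was -15.4 and -6.73 in TDG KD, -1.94 and -0.59 in siRNA control, and 1.85 and -7.81 in wild type. A value below 0 means fewer pulldown than input reads, and the offset differs between libraries, so levels are compared only within a library.

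ENRICHED domains covered 17.4% and 41.5% of chromosome 11 in TDG KD, 43.0% and 44.3% in siRNA control, and 30.6% and 37.7% in wild type. The other autosomes together had 4.87% and 21.0% in TDG KD, 20.9% and 19.2% in siRNA control, and 19.05% and 20.7% in wild type. Chromosome 11 ranked first of 18 autosomes in all 6 libraries, ahead of chromosome 7 in 5 of them and of chromosome 4 in bham480. Its share exceeded that of the other autosomes by 18.1 ± 5.39 percentage points (SD, n = 6). In no library did another ranked autosome pass 30.1%. Chromosome 8, left out of the ranking, had 29.2% and 47.8% in TDG KD, 54.4% and 60.7% in siRNA control, and 25.5% and 34.2% in wild type, so it lay above chromosome 11 in the 4 siRNA-treated libraries and below it in both wild type libraries.

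**Figure D1:**
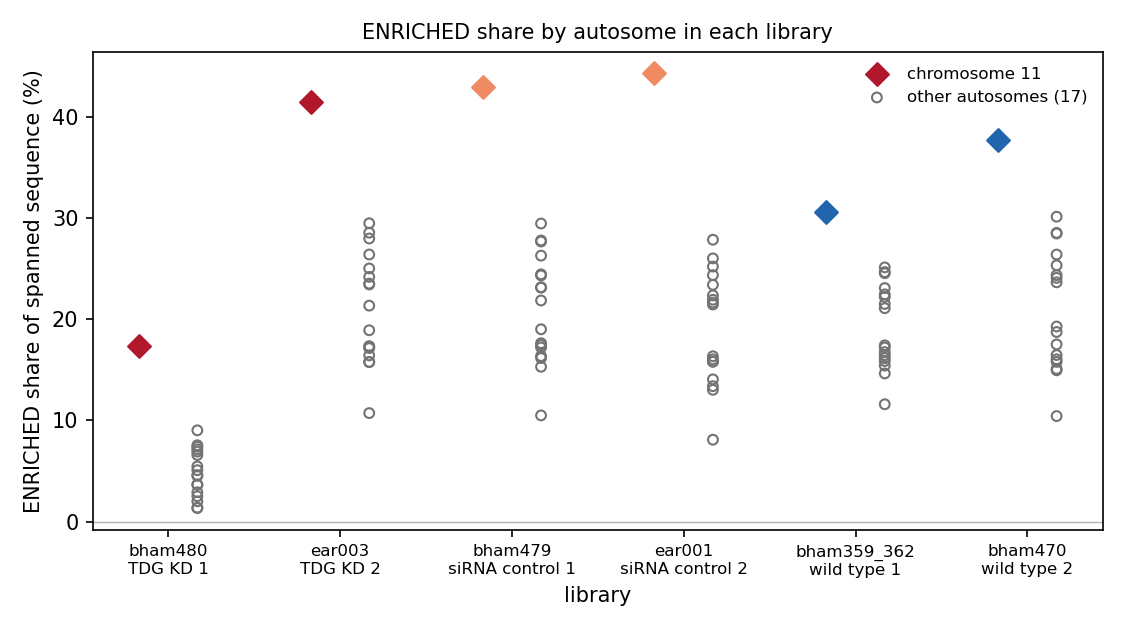
ENRICHED share of the sequence spanned by domains (%, vertical) for chromosome 11 (filled diamond) and each of 17 other autosomes (open circles) in the 6 libraries, coloured by condition. Chromosome 11 sits above every circle in each library, at 17.4% in bham480 and at 30.6% to 44.3% in the rest.

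The domains were wider as well as more frequent. The median ENRICHED domain on chromosome 11 was 9900 and 8000 bp in TDG KD, 12400 and 36850 bp in siRNA control, and 800 and 10600 bp in wild type. On the other autosomes it was 5900 and 5700 bp in TDG KD, 9000 and 23700 bp in siRNA control, and 700 and 8000 bp in wild type. Chromosome 11 had the highest median of the 18, tied with chromosomes 5 and 7 in bham359_362. ENRICHED domains numbered 21.5 and 16.4 per Mb on chromosome 11 and the other autosomes in ear003, 14.7 and 10.9 in bham479, and 207 and 160 in bham359_362.

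Sequence outside the ENRICHED domains stood slightly higher too. In BACKGROUND sequence chromosome 11 had levels of -16.9 and -3.02 in TDG KD, -0.21 and 0.33 in siRNA control, and 7.09 and -3.57 in wild type. The other autosomes had -17.4 and -4.12 in TDG KD, -1.36 and -0.996 in siRNA control, and 5.95 and -4.17 in wild type. The difference was positive in each library, at 0.97 ± 0.33 (SD, n = 6), and chromosome 11 had rank 1 in 4 libraries, rank 4 in bham480 and rank 5 in bham470. Inside ENRICHED domains the levels on chromosome 11 were 3.496 and 27.9 in TDG KD, 21.03 and 12.4 in siRNA control, and 67.5 and 23.05 in wild type. On the other autosomes they were 3.64 and 25.8 in TDG KD, 19.3 and 10.1 in siRNA control, and 67.35 and 22.01 in wild type. That difference ranged between -0.14 in bham480 and 2.32 in ear001. Over all spanned sequence chromosome 11 exceeded the other autosomes by 6.02 ± 1.55 (SD, n = 6), first of 18 in all libraries. Its level over all spanned sequence was -10.1 and 9.89 in TDG KD, 8.97 and 5.69 in siRNA control, and 25.7 and 6.54 in wild type. Chromosome 8, outside that ranking, had -5.08 and 14.8 in TDG KD, 15.1 and 11.9 in siRNA control, and 22.04 and 5.13 in wild type. ENRICHED domains of chromosome 11 thus covered more sequence in every library, while their own level was not higher in bham480.

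Gene content set chromosome 11 apart in the same windows. Over 119 windows of 1 Mb of which domains of every library spanned at least 50%, it had 13.9 protein-coding transcription start sites (TSSs) per Mb, against 8.59 over 2147 windows of the other autosomes, second to chromosome 7 with 14.3. It ranked first for CGIs, at 13.5 against 9.10 per Mb, for GC content, at 43.8% against 41.8%, and for gene bodies, which covered 47.5% against 39.1% of a window. Across the chromosome 11 windows the ENRICHED share had Pearson correlations with TSSs per Mb of 0.43 in bham480 and 0.57 to 0.60 in the other libraries, and with GC content of 0.73 in bham480 and 0.96 to 0.98 in the others. These points share their library and neighbouring windows share domains, so the correlations are descriptions (n = 119). In BACKGROUND sequence the correlation of the level with TSSs per Mb was weak, between -0.28 in bham480 and 0.36 in bham359_362 (n = 109 to 119 windows). With GC content it was -0.20 and 0.45 in TDG KD, 0.32 and 0.12 in siRNA control, and 0.74 and 0.68 in wild type.

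The ENRICHED share of chromosome 11 was greater in each successive gene density class, and higher than elsewhere in every class. On the other autosomes it was level over the last step in ear003 and ear001, at 46.6% in both with 40 or more TSSs per Mb, against 46.8% and 46.6% with 20 to 39. In windows with no protein-coding TSS (11 on chromosome 11, 231 elsewhere) it was 3.17% against 1.20% in ear003, 3.26% against 1.41% in bham479 and 1.79% against 1.00% in bham470. In windows with 5 to 9 TSSs (27 and 535) it was 35.3% against 22.2% in ear003, 39.1% against 22.4% in bham479 and 30.4% against 21.5% in bham470. With 40 or more (6 and 42), the shares were 71.0% against 46.6% in ear003, 73.0% against 46.4% in bham479 and 66.9% against 49.2% in bham470. The gap was thus widest, in percentage points, where genes were most dense.

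**Figure D2:**
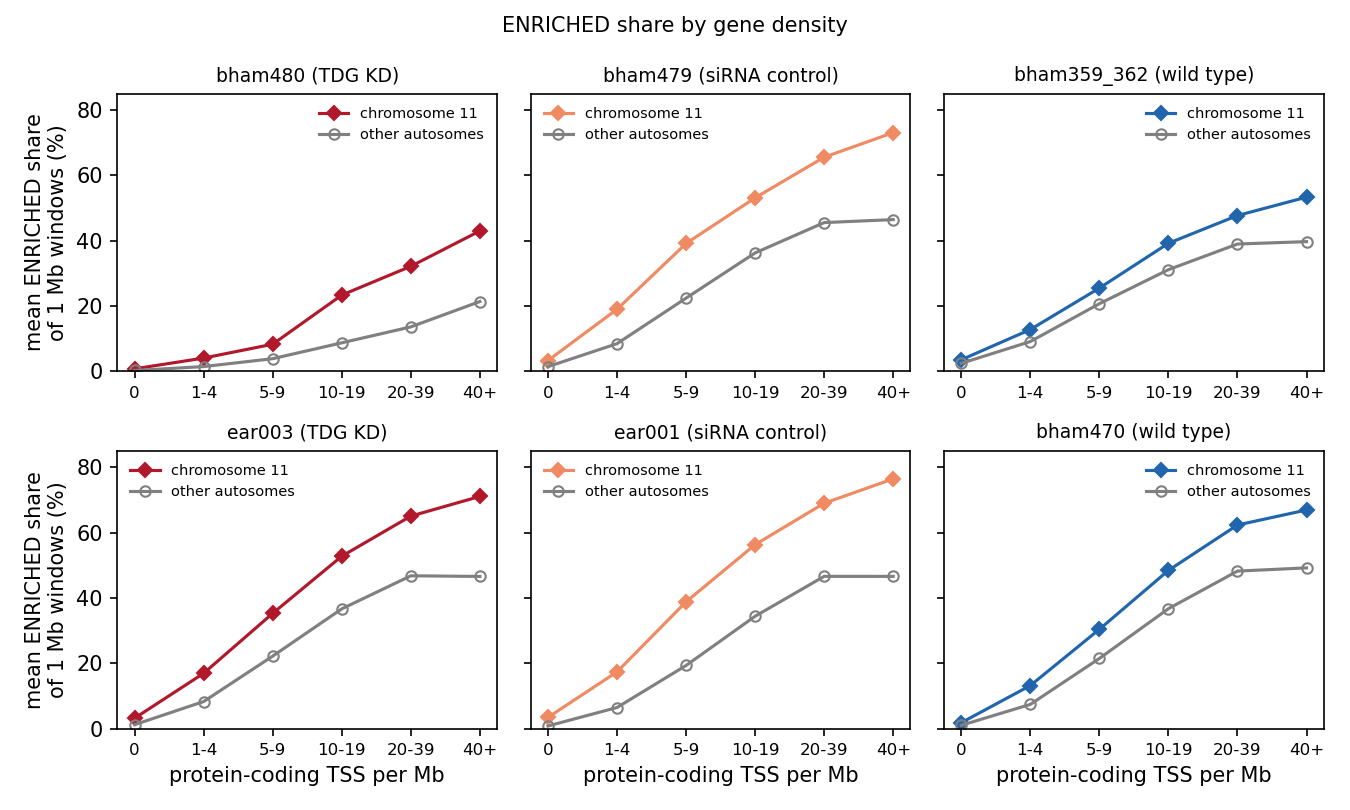
Mean ENRICHED share of 1 Mb windows (%, vertical) by protein-coding TSSs per Mb (6 classes, horizontal) for chromosome 11 (diamonds) and the other autosomes (circles), 1 panel per library. Chromosome 11 climbs through all classes and lies above the other autosomes in every class and library, whose line is level over the last step in ear003 and ear001.

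When the other autosomes were weighted to the gene density classes of chromosome 11, the surplus shrank but stayed in all libraries. At like gene density the ENRICHED share of chromosome 11 was higher by 10.1 and 13.7 percentage points in TDG KD, 15.5 and 18.1 in siRNA control, and 6.33 and 9.85 in wild type, which is 54.7% to 81.2% of the plain difference between windows. The level in BACKGROUND sequence was higher by 0.56 and 0.92 in TDG KD, 0.99 and 1.14 in siRNA control, and 0.77 and 0.54 in wild type. Sequence over 10 kb from any annotated gene showed it as well. There, 7.25% and 22.7% of chromosome 11 was ENRICHED in TDG KD, 24.9% and 25.1% in siRNA control, and 16.4% and 18.6% in wild type. The other autosomes had 2.45% and 11.8% in TDG KD, 12.3% and 10.8% in siRNA control, and 11.4% and 11.2% in wild type.

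Matching on GC content narrowed the surplus further than matching on gene density. Against windows of the same GC class, 1 percentage point wide, the ENRICHED share of chromosome 11 was higher by 7.34 and 5.32 percentage points in TDG KD, 7.03 and 10.4 in siRNA control, and only 0.25 and 1.54 in wild type. The level over all sequence, a measure added after the values were seen, was higher by 2.12 and 2.36 in TDG KD, 2.27 and 2.54 in siRNA control, and 0.25 and 0.36 in wild type. Every siRNA-treated library thus lay above both wild type libraries, which were near 0. In BACKGROUND sequence at like GC the differences were 0.36 and 0.16 in TDG KD, 0.37 and 0.79 in siRNA control, and -0.11 and -0.26 in wild type. Levels are scaled to the whole library, so a chromosome that takes more reads leaves fewer for the rest.

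The comparison of conditions was independent of the choice of chromosome only in part, since all 6 libraries entered that choice. Without matching for GC, the share surplus of chromosome 11 averaged 20.0 percentage points in siRNA-treated and 14.3 in wild type libraries, a difference of 5.73 (exact two-sided permutation test, p = 0.267, adjusted p = 0.444 over 4 tests, n = 4 and 2 libraries), and 2.97 within the libraries whose names begin with BHAM. The surplus in BACKGROUND level averaged 1.03 in siRNA-treated and 0.87 in wild type libraries, a difference of 0.16 (exact p = 0.8, adjusted p = 0.8), which was -0.0293 within the BHAM prefix and -0.11 without bham470. At like GC the level over all sequence averaged 2.32 ± 0.18 in siRNA-treated and 0.30 ± 0.08 in wild type libraries (SD, n = 4 and 2), a difference of 2.02 (exact p = 0.133, adjusted p = 0.267 over 6 tests). The share surplus at like GC averaged 7.51 ± 2.09 percentage points in siRNA-treated and 0.89 ± 0.91 in wild type libraries, a difference of 6.61 with the same p. The permutation test as run counts the smaller tail 2 times, so 0.133 is the smallest p it allows for 4 against 2 libraries and it could not pass 0.05.

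Chromosome 11 had the largest siRNA-treated minus wild type difference at like GC of the 18 ranked autosomes, from which chromosome 8 was left out. Measured the same way, chromosome 8 had 8.65 and 10.9 in TDG KD, 10.9 and 10.1 in siRNA control, and 2.06 and 2.35 in wild type, a difference of 7.91 and larger than that of chromosome 11. Chromosome 14 followed with 1.42 and chromosome 6 with 1.27. In single windows, all 4 siRNA-treated libraries lay above both wild type libraries in 82 of 119 windows of chromosome 11 (68.9%), against 19.5% of all 2266 windows, and all lay below in 1 (0.84%), against 16.2%. Leaving out a library can only keep or add such windows, so it cannot show whether the count rests on 1 library. The count was then 83 to 95 windows (69.7% to 79.8%), against 20.9% to 38.0% of all windows. Without bham480 it was 87 (73.1%, against 20.9%), and without bham470 the share was 72.3% on chromosome 11, against 38.0%. Within the BHAM prefix alone the difference in level was 1.89. The part of siRNA, transfection, feeders or culture in this difference was not tested. The only input came from wild type cells, so reads per chromosome without pulldown were not measured in siRNA-treated cells. A difference between cultures in such reads would remain in these levels. In BACKGROUND sequence chromosome 8 had -13.6 and -1.84 in TDG KD, 1.72 and 3.43 in siRNA control, and 5.48 and -4.39 in wild type. The other autosomes had -17.4 and -4.12, -1.36 and -0.996, and 5.95 and -4.17.

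**Figure D3:**
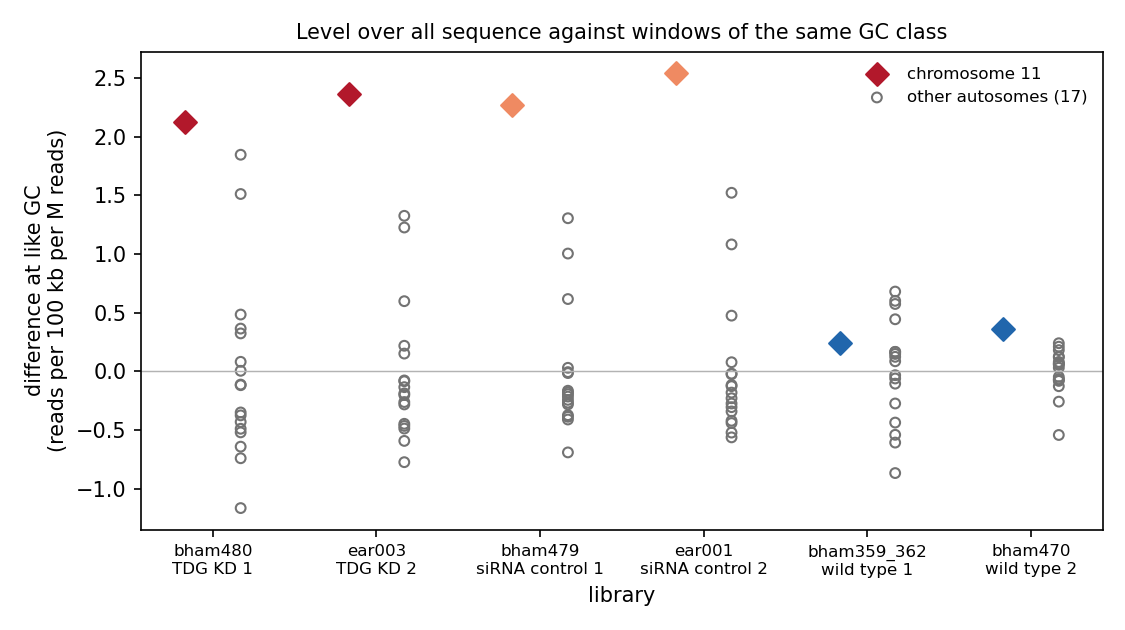
Level over all spanned sequence of each autosome minus windows of the same GC class on the other autosomes (reads per 100 kb per M reads, vertical) in the 6 libraries, with chromosome 11 as filled diamonds and 17 autosomes as open circles. Chromosome 11 lies at 2.12 to 2.54 in the 4 siRNA-treated libraries and at 0.25 and 0.36 in wild type.

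Between TDG KD and siRNA control no difference passed the permutation test, which as run allows no p under 0.333 for 2 against 2 libraries. The share surplus of chromosome 11 averaged 16.5 percentage points in TDG KD and 23.6 in siRNA control, a difference of -7.12 (exact p = 0.333, adjusted p = 0.444), with -9.55 within the BHAM and -4.68 within the EAR prefix. Without bham480 it was -3.14. The BACKGROUND surplus averaged 0.81 in TDG KD and 1.24 in siRNA control, a difference of -0.43 (exact p = 0.333, adjusted p = 0.444), which had the other sign, 0.60, once UNCONFIDENT sequence was counted with BACKGROUND. At like GC the level over all sequence averaged 2.24 ± 0.17 in TDG KD and 2.41 ± 0.19 in siRNA control (SD, n = 2 each), a difference of -0.16 that is no larger than the spread (exact p = 0.667). Windows with both TDG KD libraries above both controls at like GC numbered 17 of 119 (14.3%), against 17.2% of all windows, and 19 had both below (16.0%), against 15.8%, so neither count stood out from the other autosomes.

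In BACKGROUND sequence without matching for GC, all siRNA-treated libraries lay above wild type in 26 of 109 windows of chromosome 11 (23.9%), against 13.3% of 2196 windows, and below in 21 (19.3%), against 19.6%. Both TDG KD libraries lay above both controls in 11 windows (10.1%), against 7.92%, and below in 17 (15.6%), against 8.11%. The widest siRNA-treated minus wild type differences were in gene-poor windows, which were not set against like windows of other autosomes. On the other autosomes too, the BACKGROUND level followed GC more closely in wild type, with Pearson correlations of 0.82 and 0.76. There they were -0.04 and 0.69 in TDG KD, and 0.65 and 0.53 in siRNA control (n = 2094 to 2147 windows). In the window from 38 to 39 Mb, which has no protein-coding gene, BACKGROUND stood above the mean of the other autosomes by 2.04 and -2.61 in TDG KD, -0.58 and 0.40 in siRNA control, and -4.51 and -3.64 in wild type, so all siRNA-treated libraries were above both wild type libraries. The neighbouring window from 39 to 40 Mb and that from 14 to 15 Mb followed, with differences of 3.49 and 3.40. The siRNA-treated libraries had the same values at 39 to 40 Mb as at 38 to 39 Mb, so the neighbour is no separate measurement in them. The widest opposite differences were in gene-rich windows. That at 78 to 79 Mb, with Nlk, a kinase of Wnt signalling, and Nos2, the inducible nitric oxide synthase, had -3.70. Those at 32 to 33 Mb (Fbxw11 and Stk10) and 62 to 63 Mb (Ncor1, a nuclear receptor corepressor) had -3.67 and -3.51. Both leaned on bham480, at -4.51 and -3.94. In ear003, bham479 and ear001 the first had 1.35, 0.86 and 0.83, and the second 0.51, -1.38 and -2.19. Wild type had 2.95 and 3.66 in the first, and 2.73 and 0.80 in the second.

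Along the chromosome the ENRICHED share was lower between 10 and 50 Mb than in its other segments, though unevenly, and highest at the distal end. The first 10 Mb had 14.9% and 43.9% in TDG KD, 48.0% and 50.1% in siRNA control, and 35.7% and 42.9% in wild type. Between 10 and 20 Mb it was 1.13% and 8.46% in TDG KD, 8.99% and 8.40% in siRNA control, and 7.72% and 5.18% in wild type. Between 30 and 40 Mb it was 4.65% and 29.5% in TDG KD, 30.6% and 33.3% in siRNA control, and 21.3% and 27.4% in wild type. There it exceeded the share of the other autosomes in every library but bham480. Between 110 and 120 Mb it was 62.4% and 70.3% in TDG KD, 70.6% and 70.1% in siRNA control, and 54.9% and 68.1% in wild type. That distal segment was where bham480 reached the other libraries, having 25.8% or less in every segment before it. The libraries ordered the windows alike, with Pearson correlations of the share of 0.97 to 0.99 among the other 5 and of 0.69 to 0.77 with bham480 (n = 119 windows, which share their sequence).

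At like GC the picture along the chromosome was flatter. In 11 of 13 segments of 10 Mb all siRNA-treated libraries lay above both wild type libraries. From 50 to 60 Mb the level difference was 3.35 and 2.88 in TDG KD, 2.98 and 3.03 in siRNA control, and 0.75 and 0.52 in wild type. From 110 to 120 Mb it was 4.05 and 3.27 in TDG KD, 3.48 and 3.27 in siRNA control, and -0.55 and 0.15 in wild type. The first segment was unlike the rest, at -0.36 and 4.50 in TDG KD, 4.09 and 4.17 in siRNA control, and 6.17 and 3.02 in wild type, with the groups overlapping. The groups also overlapped from 20 to 30 Mb, where bham480 had 0.06.

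**Figure D4:**
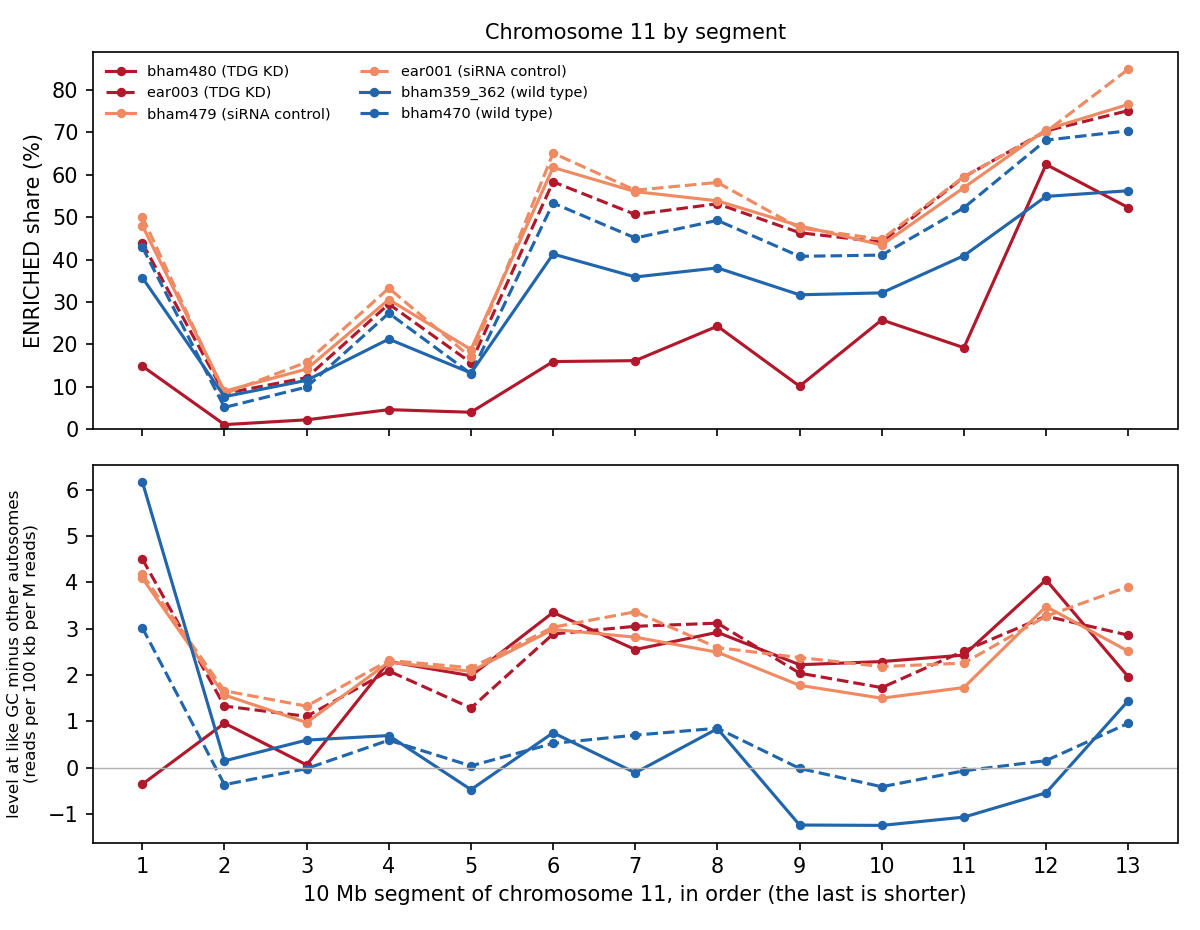
ENRICHED share (%, above) and level over all sequence at like GC minus the other autosomes (reads per 100 kb per M reads, below) for the 13 consecutive segments of chromosome 11, 1 line per library. The share climbs to 54.9% to 70.6% in segment 12, and at like GC the siRNA-treated lines lie above the wild type lines in 11 of 13 segments.

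The 5 windows with the highest mean ENRICHED share lay beyond 113 Mb. The highest, at 118 to 119 Mb, was 97.3% and 99.4% ENRICHED in TDG KD, 98.3% and 100% in siRNA control, and 81.5% and 98.6% in wild type. It holds Rbfox3, a splicing factor of neurons, Timp2, an inhibitor of metalloproteinases, and the Polycomb genes Cbx2 and Cbx8. Its neighbours at 119 to 120 Mb (Rptor, the scaffold of mTORC1, and Rnf213) and 117 to 118 Mb (Sept9, a cytoskeletal GTPase, and Tnrc6c, of the miRNA silencing machinery) averaged 94.0% and 92.8% over the libraries. The windows at 113 to 114 Mb (Sdk2 and Slc39a11) and 120 to 121 Mb (Csnk1d, a casein kinase, among 47 TSSs) averaged 89.5% and 88.1%. All of them had 49.1% GC or more.

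The 5 lowest windows averaged 0.05% to 0.28% ENRICHED. Those at 38 to 39, 14 to 15 and 39 to 40 Mb overlap no protein-coding gene. The window at 37 to 38 Mb holds Odz2, a teneurin of synaptic adhesion. The GC content of the 5 windows was 36.4% to 37.9%.

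Sequence ENRICHED in all 6 libraries covered 12.0 Mb, 10.2% of chromosome 11, against 2.59% of the other autosomes. Without bham480 these shares were 19.9% and 8.19%. The 12.0 Mb fell into 4064 stretches with a median of 1700 bp, 52.0% GC, 16.7 CpG per kb and 31.0 TSSs per Mb. Sequence ENRICHED in no library covered 42.0% of chromosome 11, against 65.0% of the others, with a median stretch of 3600 bp, 39.2% GC, 6.16 CpG per kb and 3.12 TSSs per Mb. Shared stretches were thus richer in CpG and in starts than shared gaps. Stretch counts and medians turn on bham359_362 and were not computed without it. Its median ENRICHED and BACKGROUND domains on chromosome 11 were 800 and 1400 bp.

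Sequence ENRICHED in siRNA-treated but not in wild type libraries, or the reverse, took small shares. Sequence in ear003, bham479 and ear001 but in neither wild type library was 2.11% of chromosome 11, against 0.63% of the other autosomes. With bham480 also required, it was 0.47% against 0.06%. The reverse, sequence in both wild type libraries and in none of ear003, bham479 and ear001, was 0.26% of chromosome 11, against 0.57%. Chromosome 11 thus held a larger share of sequence ENRICHED in siRNA-treated cells alone and a smaller share of that in wild type cells alone.

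The widest stretch ENRICHED throughout ran over 38.5 kb from 120.547 to 120.586 Mb, through Aspscr1, Lrrc45, Stra13 and Rac3, a small GTPase. It had levels of 1.42 and 47.6 in TDG KD, 27.8 and 16.0 in siRNA control, and 79.1 and 37.2 in wild type. Next came 37.9 kb in Baiap2 and Aatk, 37.6 kb at Slc38a10, 33.5 kb at Rbfox3 and Engase, and 33.2 kb near 95.0 Mb with no protein-coding gene. Of the 5 widest stretches ENRICHED in none, 3 lay between 38.3 and 39.1 Mb, of 296.5, 272.7 and 197.2 kb. The others were 183.4 kb from 13.04 Mb and 178.5 kb over Nlrp1b, an inflammasome sensor, where GC was 42.1%. These widths follow the narrow domains of bham359_362, whose widest BACKGROUND domain on chromosome 11 was 296.5 kb. In each other library the widest was between 2408.7 and 5080.1 kb. The 296.5 kb stretch ended at 38582622 and the 197.2 kb stretch began at 38582723.

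At gene starts the same order held. The TSS lay in an ENRICHED domain for 31.2% and 73.7% of the 1653 protein-coding genes of chromosome 11 in TDG KD, 63.9% and 64.9% in siRNA control, and 74.7% and 63.6% in wild type. For the 18683 genes of the other autosomes it did for 12.2% and 52.6% in TDG KD, 41.0% and 36.3% in siRNA control, and 62.5% and 45.9% in wild type. In all 6 libraries the TSS was ENRICHED for 373 genes of chromosome 11 (22.6%), against 1464 (7.84%) elsewhere. Of its 1609 CGIs, 37.4% and 75.9% were ENRICHED over at least 50% of their length in TDG KD, 66.3% and 66.3% in siRNA control, and 78.0% and 67.7% in wild type. On the other autosomes it was 13.1% and 51.7% in TDG KD, 39.7% and 34.3% in siRNA control, and 62.3% and 44.3% in wild type.

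Gene groups of chromosome 11 differed widely, and the lists were chosen with earlier results of these data known. All 4 Wnt ligand genes, Wnt3, Wnt3a, Wnt9a and Wnt9b, had ENRICHED starts in every library, and their bodies were ENRICHED over 90.6% to 100% of their length in 5 libraries. The Polycomb gene Cbx8 had an ENRICHED start in all 6 libraries and Cbx2 in 5. The starts of Hic1, a tumour suppressor, and Rara, the retinoic acid receptor alpha, were ENRICHED throughout. They were 2 of 9 genes listed singly (22.2%), against 22.6% of all genes of chromosome 11. The start of Sox9, a regulator of cartilage and gonad, was ENRICHED throughout too. Of the 3 Sox genes it was the only 1 (33.3%) with an ENRICHED start in at least 5 libraries. Of the 8 Cd300 genes, receptors of myeloid cells, 4 had ENRICHED starts in all 6 libraries and the other 4 in 5. Over all 1653 genes of chromosome 11 the start was ENRICHED in at least 5 libraries for 793 (48.0%), against 26.1% on the other autosomes.

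The Hoxb cluster, whose 10 genes lay within 96.1 to 96.2 Mb, gave unequal counts between libraries. Its starts were ENRICHED for 9 and 9 genes in TDG KD, 10 and 9 in siRNA control, and 4 and 8 in wild type. The low count was that of bham359_362. There the bodies of Hoxb7 and Hoxb8 were ENRICHED over 8.63% and 11.7%, against at least 86.4% in each other library. Shares over all genes of chromosome 11 were 31.2% and 73.7% in TDG KD and 63.9% and 64.9% in siRNA control. They were 74.7% and 63.6% in wild type. In all 6 libraries 3 of the 10 Hoxb starts were ENRICHED (30%), against 22.6% of all genes. In at least 5 libraries 8 were (80%), against 48.0%. Of the alpha globin genes, Hba-x was ENRICHED at its start in all 6 libraries, and Hba-a1 and Hba-a2, near-identical copies whose reads may not be placed uniquely, in all but bham359_362. 3 of 3 T-box genes had ENRICHED starts in at least 5 libraries, against 48.0% of all genes of chromosome 11.

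At the other end, none of 79 olfactory receptor genes, chemosensory genes of the nose, had an ENRICHED start in all 6 libraries and 38 (48.1%) had one in no library, against 160 of the 1653 genes of chromosome 11 (9.68%) and 25.6% of those of the other autosomes. Type I keratin and keratin-associated genes had 2 and 27 of 47 starts ENRICHED in TDG KD, 18 and 25 in siRNA control, and 28 and 23 in wild type. None was ENRICHED in all 6, against 22.6% of the genes of chromosome 11, a count that turns on bham480. In at least 5 libraries 13 (27.7%) were, against 48.0% on chromosome 11 and 26.1% on the other autosomes. Brca1 and Meis1 each had an ENRICHED start in 1 library, and Nf1 in the wild type libraries alone, a pattern chosen after its values were seen. The cytokine locus with Il4 and Csf2 had ENRICHED starts for 0 and 6 of 7 genes in TDG KD. It had 5 and 7 in siRNA control, and 4 and 5 in wild type. Over all genes of chromosome 11 the shares were 31.2% and 73.7%, 63.9% and 64.9%, and 74.7% and 63.6%. In bham480 no sequence of the windows from 51 to 54 Mb was ENRICHED, so the 0 is not particular to these genes.

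**Figure D5:**
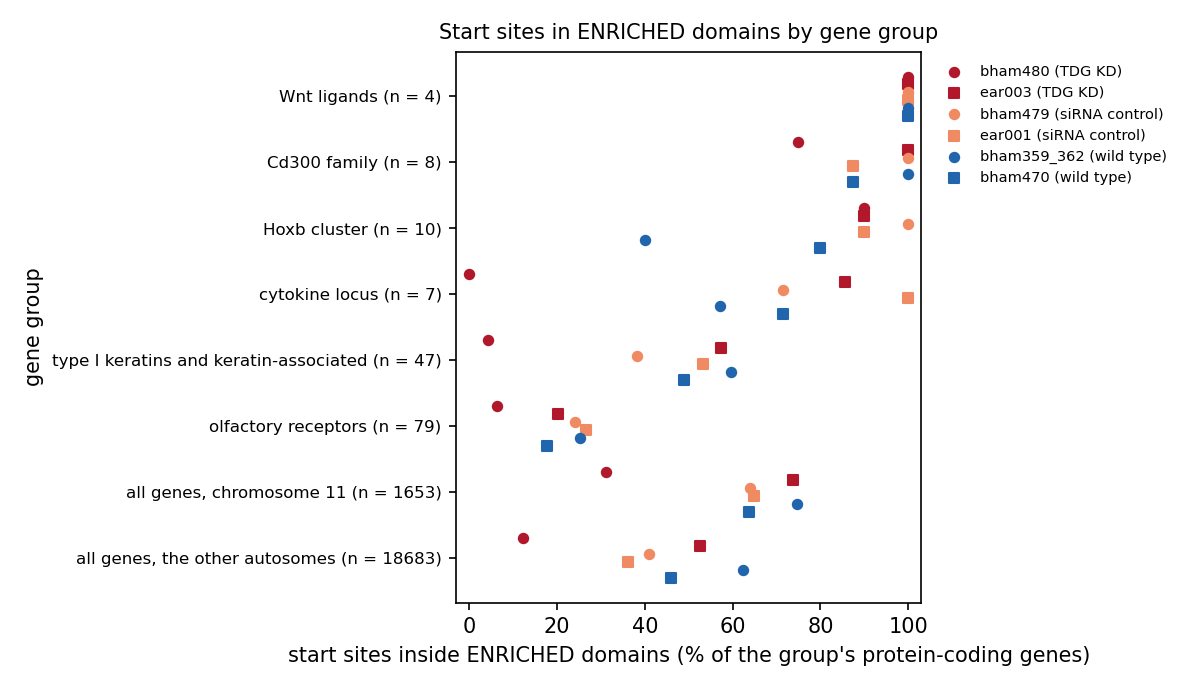
Share of each group's genes with the TSS inside an ENRICHED domain (%, horizontal) for 6 gene groups of chromosome 11, all its 1653 genes and the 18683 genes of the other autosomes, 1 point per library coloured by condition. Wnt ligands sit at 100% in all libraries and olfactory receptors at 26.6% or less.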

How the data were processed

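5fC was measured by chemical pulldown in 6 libraries of mouse J1 ES cells, 2 for each of 3 conditions, with 1 shared input. Per the labels and methods, the authors aligned reads to mm9 with BWA 0.6.1, kept uniquely placed reads (mapping quality of at least 15) and called domains per library with rseg in 100 bp bins against the input. The deposited value of a domain is a score, the mean pulldown minus input reads per bin, not scaled for depth. A second deposited score was not used.

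Scores were divided by M uniquely placed reads from the study's table of sequencing runs (20.4 to 45.9 M) and given per 100 kb. Windows of 1 Mb needed domains of every library over 50% of their length, and at least 100 kb of BACKGROUND for its level. Genes came from GENCODE M1 and CGIs from the mm9 sequence (at least 200 bp, over 50% GC, observed to expected CpG over 0.6, repeats not masked). Other autosomes were weighted to the classes of chromosome 11 by TSSs per Mb or by GC. Conditions were compared over libraries by exact two-sided permutation tests with Benjamini-Hochberg adjustment, at a threshold of 0.05, in Python 3.11.15 with NumPy 2.4.6, SciPy 1.17.1, numba 0.67.0 and Matplotlib 3.10.9. The functions were tested on simulated data. Libraries were also compared within the prefix of their names, BHAM or EAR, which the labels do not explain.

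Chromosome 11, the gene lists and the tests were chosen with earlier results of these data known. Named regions were the 5 highest and 5 lowest windows by mean ENRICHED share, the 5 widest stretches ENRICHED in all libraries and in none, and the 3 windows with the widest siRNA-treated minus wild type difference in each direction. Some genes and a sequence that the rule names are not reported here. The level over all sequence at like GC, its tests and its alternatives were added after the values were seen. The other alternatives left out each library, included chromosome 8, moved UNCONFIDENT sequence, dropped weak or narrow domains, left out depth scaling, took medians, used gene body or GC classes, or used 500 kb windows.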

Additional observations from a re-analysis of the deposited data

Results flagged for a closer look

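Among the 4 siRNA-treated libraries, 20 measures of chromosome 11 were checked for a library far from the others, and 3 were found. Chance would give about 1 in 20, but many of these measures share values, so the count cannot be set against that rate. The ENRICHED share of bham480, 17.4%, lay below the other 3 (41.5% to 44.3%). Its UNCONFIDENT share, 30.6%, lay above theirs, each under 0.1%. The median ENRICHED width of ear001, 36850 bp, lay above the others (8000 to 12400 bp).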

How the results depend on the processing

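The surplus of chromosome 11 in ENRICHED share (18.1 percentage points) lay between 15.8 and 19.4 over the alternatives except the median over windows, which gave 27.7, and between 16.7 and 19.4 when a library was left out. At like gene density (12.3) GC classes gave 5.30, and a library left out gave 11.1 to 13.5. The BACKGROUND surplus (0.97) was 1.39 with UNCONFIDENT sequence counted in, 30.5 reads without depth scaling, another unit, and 0.90 to 1.06 with a library left out. At like gene density (0.82) these were 1.20, 24.98 and 0.76 to 0.88, and GC classes gave 0.22. The BACKGROUND difference of siRNA-treated minus wild type (0.16) changed sign with medians (-0.25), without depth scaling (-5.75), within BHAM (-0.0293) and without wild type replicate 2, bham470 (-0.11), and a library left out gave -0.11 to 0.43. That of TDG KD minus siRNA control (-0.43) became 0.60 with UNCONFIDENT sequence counted in. Of the results at like GC, the level difference of siRNA-treated minus wild type (2.02) lay between 1.45 (chromosome 8 included) and 2.24 (first 10 Mb left out), and its share difference (6.61) between 5.09 and 7.35. Sequence ENRICHED in all libraries was 10.2% of chromosome 11 and 19.9% without bham480. A library left out moved the share difference of siRNA-treated minus wild type (5.73) to 3.02 to 8.44, and that of TDG KD minus siRNA control (-7.12) to -11.1 to -3.14, and medians gave -19.7 for the second. The causes were not tested. The labels give no replicate numbers that pair libraries, so no replicate block was fitted, and values within a name prefix stand in its place. With 2 libraries a condition the permutation tests as run could not pass 0.05, domain values average over wide sequence, and read counts were not used.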
